A study of Rattus norvegicus with 172 samples.

Results

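Cytochrome P450 genes of families 1 to 4, 50 in all, were followed in the liver of male Fischer 344 rats given furan or 3-methylfuran. The 50 genes were every symbol in the deposited comparison tables that starts with Cyp1, Cyp2, Cyp3 or Cyp4 and goes on with a subfamily letter and a number, without Cyp2e1. They were 50 of 19777 genes with a symbol, and comprised 3 genes of family 1, 28 of family 2, 3 of family 3 and 16 of family 4. Messenger RNA was sequenced from 70 rats after 90 days. Furan is a volatile heterocycle formed when food is heated, and 3-methylfuran is the same ring with a methyl group.

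Doses were daily amounts in mg per kg of body weight. Furan was given at 0.03 (8 rats), 0.12 (8 rats), 0.5 (7 rats) and 2.0 (7 rats), beside 8 control rats. 3-Methylfuran was given at 0.02, 0.075 and 1.0 to groups of 8 rats, beside 8 control rats of its own. Groups are named below by compound and dose, for example furan 2.0. The labels of the treated groups name diets, for example Diet E for furan 2.0. Beyond that word, the sources used here do not state route, and they do not state age or vehicle. Each rat was taken as 1 replicate. The doses of the compounds do not match, and their libraries were made with different kits, so compound, kit and experiment cannot be told apart where the experiments are set side by side.

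Cytochrome P450 enzymes are haem proteins of the endoplasmic reticulum that insert an oxygen atom into their substrates with electrons passed on by the P450 reductase Por. In hepatocytes, families 1 to 3 oxidise drugs, food contaminants and steroids, while family 4 mainly oxidises fatty acids. Subfamilies respond to different ligand-activated receptors: family 1 to the aryl hydrocarbon receptor AHR, Cyp2b and Cyp3a genes to CAR (Nr1i3) and PXR (Nr1i2), and Cyp4a genes to PPAR alpha (Ppara). Several rat P450 genes are also set by the sex-dependent rhythm of growth hormone, Cyp2c11 being the classical male form and Cyp2c12 the classical female form. Many P450 mRNAs are concentrated in pericentral hepatocytes.

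A pair of Cyp2c genes and a pair of Cyp3a genes were picked from the results given below. In each pair 1 member fell and the other rose at the highest dose of both compounds. They are examples only: with both compounds 22 P450 genes fell and 2 rose, and Cyp2c24 was near 0 in controls. Cyp2c11 and Cyp2c24 lie on the same chromosome with 0 protein-coding genes between them in the RefSeq annotation of GRCr8, and Cyp3a18 and Cyp3a62 belong to one subfamily. The 150 bases before the start of each gene are shown 5′ to 3′ on the gene's own strand, from RefSeq (GRCr8), with the TATA box letters TATAAA in capitals where present.
Cyp2c11 (fell), chr1:246175066-246175215, plus strand: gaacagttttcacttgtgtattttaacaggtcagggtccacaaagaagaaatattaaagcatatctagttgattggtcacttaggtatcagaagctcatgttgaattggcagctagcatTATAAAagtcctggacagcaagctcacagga
Cyp2c24 (rose), chr1:246286191-246286340, plus strand: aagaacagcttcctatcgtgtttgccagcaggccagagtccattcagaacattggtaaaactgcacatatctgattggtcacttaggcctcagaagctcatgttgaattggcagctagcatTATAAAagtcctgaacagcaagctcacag
Cyp3a18 (fell), chr12:13994162-13994311, plus strand: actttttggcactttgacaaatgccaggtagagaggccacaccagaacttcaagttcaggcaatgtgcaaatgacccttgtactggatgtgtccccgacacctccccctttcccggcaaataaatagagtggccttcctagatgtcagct
Cyp3a62 (rose), chr12:21511613-21511762, plus strand: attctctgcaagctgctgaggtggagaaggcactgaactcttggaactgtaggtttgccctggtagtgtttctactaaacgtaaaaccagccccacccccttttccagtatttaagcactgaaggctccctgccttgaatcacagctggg
The windows of Cyp2c11 and Cyp2c24 matched at 119 of 154 aligned positions (77.3%) and shared an unbroken run of 45 bases that holds the TATA box. The first base of the TATA box stood 31 bases before the start of Cyp2c11 and 29 bases before that of Cyp2c24. The windows of Cyp3a18 and Cyp3a62 matched at 91 of 164 aligned positions (55.5%), with a longest shared run of 8 bases, and neither stretch of 150 bases held TATAAA. That is little above the 52.5%, with a longest run of 6 bases, of the unlike pair Cyp2c11 and Cyp3a18, and 116 protein-coding genes lie between Cyp3a18 and Cyp3a62.

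A RefSeq promoter window was found for 43 of the 50 genes. Over the 250 bases before the start and on both strands, TATAAA occurred in 12 of 43 P450 windows (27.9%) beside 13.1% of 27457 promoters. GCGTG, the core of the AHR response element, occurred in 13 of 43 (30.2%) beside 27.2% of all promoters, a similar share. Of the family 1 genes, Cyp1b1 held it and Cyp1a2 did not, and Cyp1a1 had no window. The letters TTGCNNCAA, one form of the C/EBP site, and CAAAGTCCA, one form of the HNF4 site, occurred in 0 of 43 windows, beside 1.74% and 0.331% of all promoters. These counts describe letters in short windows only.

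Total counts per rat, in units of M (mega), ran from 11.4 M to 27.7 M in the furan experiment (median 16.3 M) and from 11.1 M to 50.05 M in the 3-methylfuran experiment (median 14.9 M). Levels are given as CPM, a gene's counts scaled to a common library size with the TMM factors of edgeR, which sets the bulk of genes level between libraries. They are not divided by transcript length, so CPM compares rats for 1 gene and does not rank genes by transcript number. The reads of near-identical copies, such as Cyp2b1 and Cyp2b2 or members of the Cyp2c, Cyp2d, Cyp3a and Cyp4a clusters, may be split between genes, since the sources used here do not state how multimapping reads were handled. Their single values are uncertain to that extent.

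Of the 50 genes, 38 passed the filter on low counts in both experiments, 1 (Cyp1a1) passed in the furan experiment only, and 11 passed in neither. The 11 were Cyp1b1, Cyp2ab1, Cyp2b12, Cyp2b21, Cyp2j16, Cyp2w1, Cyp4f5, Cyp4f18, Cyp4f37, Cyp4f40 and Cyp4x1. Apart from Cyp1b1, which reached 1.96 CPM in 1 furan rat, their highest values were 0.994 CPM in the furan and 0.526 CPM in the 3-methylfuran rats. In controls, 5 genes held 44.3% (furan) and 44.8% (3-methylfuran) of the summed P450 CPM. In the furan controls these were Cyp4a2 (2356 ± 369 CPM, mean ± SD, n = 8), Cyp2c11 (2110.1 ± 243), Cyp2c7 (1678 ± 488), Cyp2c6v1 (1638 ± 344) and Cyp2c13 (1530.2 ± 213). In the 3-methylfuran controls they were Cyp2c11 (2027 ± 423 CPM, n = 8), Cyp4a2 (1905 ± 393), Cyp2c7 (1559 ± 343), Cyp2a3 (1453 ± 180.2) and Cyp2d2 (1350.4 ± 166).

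The question at the highest doses was which P450 mRNAs moved, and in which direction. Most fell with both compounds. At furan 2.0, 25 of 39 tested P450 genes fell and 3 rose (edgeR quasi-likelihood F test, Benjamini-Hochberg adjusted p under 0.05 over all genes). Over all 12727 genes tested, 22.5% fell and 24% rose, 46.5% in all. The median log2 fold change was -0.56 over the P450 genes and 0.02 over all genes. At 3-methylfuran 1.0, 25 of 38 fell and 6 rose, beside 22.5% and 21.2% of 11930 genes, 43.6% in all. Here the medians were -0.40 over the P450 genes and -0.001 over all genes. Among the genes counted as rising, Cyp1a1 (furan) and Cyp2c24 (both compounds) passed the filter through treated rats. Their part in these counts is a description only.

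With libraries scaled by total count alone, the splits were 7 higher and 17 lower at furan 2.0, and 7 higher and 15 lower at 3-methylfuran 1.0. That scaling moved the median of all genes to 0.42 and 0.25, so the falls are relative to the bulk of genes. It ended the calls of 7 fallen genes at furan 2.0 (Cyp2b3, Cyp2c13, Cyp2c22, Cyp2d4, Cyp4a1, Cyp4a3 and Cyp4f6; adjusted p from 0.090 to 0.84). At 3-methylfuran 1.0 it ended those of 9, Cyp2a3, Cyp2c13, Cyp2c23, Cyp2f4, Cyp4a1, Cyp4a3, Cyp4b1, Cyp4f6 and Cyp4f39 (adjusted p from 0.055 to 0.69). It added calls of higher levels for Cyp2c12, Cyp2j4 and Cyp4b1 at furan 2.0 and for Cyp2b3 at 3-methylfuran 1.0. Cyp4f1 was the only P450 gene among those called whose direction turned, to a log2 fold change of 0.15 at furan 2.0 and 0.10 at 3-methylfuran 1.0.

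The summed P450 level ran from 19534 to 22131 CPM in the furan controls and from 9244 to 17777 CPM at furan 2.0. In the 3-methylfuran controls it ran from 16680.0 to 21039 CPM, and at 3-methylfuran 1.0 from 10178 to 13845 CPM. Neither treated group overlapped its controls on this scale. As a plain share of all counts, which uses no scaling, the 50 genes made up 1.97 ± 0.11% in the furan controls and 1.46 ± 0.19% at furan 2.0 (SD, n = 8 and 7). On that scale the furan groups overlapped, since the highest rat at furan 2.0 stood at 1.81% and the lowest control at 1.79%. The share was 1.76 ± 0.12% in the 3-methylfuran controls and 1.35 ± 0.11% at 3-methylfuran 1.0 (n = 8 and 8).

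Of the 25 genes that fell at furan 2.0 and the 25 that fell at 3-methylfuran 1.0, 22 were the same, 88% of each list. The overlap among all genes called lower was not counted, so this share is not shown to be particular to P450 genes. The 22 include Cyp4f1, whose direction turned under scaling by total count alone. They also include Cyp2c13, Cyp4a1, Cyp4a3 and Cyp4f6, whose calls ended under that scaling with both compounds. Cyp2c24 and Cyp3a62 rose with both, where Cyp2c24 passed the filter through treated rats and is a description only. Cyp2b3, Cyp2c22 and Cyp2u1 were called lower at furan 2.0 only, and Cyp2b2, Cyp3a9 and Cyp4b1 at 3-methylfuran 1.0 only. Cyp2c12, Cyp2j4, Cyp2j10 and Cyp2r1 were called higher at 3-methylfuran 1.0 only. Cyp2b1, Cyp2s1, Cyp4f17 and Cyp4v3 were called in neither, and Cyp1a1 rose at furan 2.0 and was not tested for 3-methylfuran. A call in one experiment and not in the other does not show a difference; the tests of the difference are given further on.

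**Figure D1:**
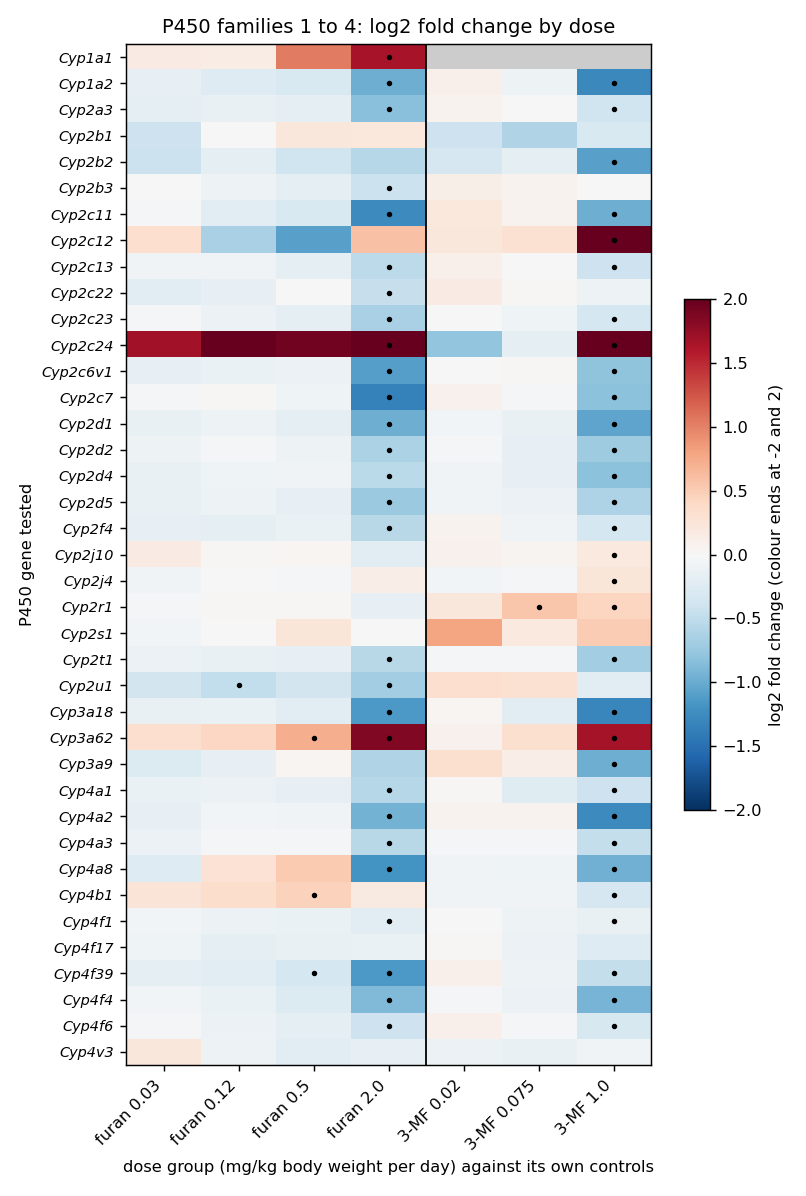
Log2 fold change of each tested P450 gene (rows) in each dose group against the controls of its own experiment (columns, daily dose in mg per kg), with blue for lower and red for higher. A black point marks an adjusted p under 0.05 and grey a gene not tested; at the 2 highest doses 25 genes each are marked lower, of which Cyp4f1 turns higher when libraries are scaled by total count alone.

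The treated groups separated completely from their controls for some genes. At furan 2.0, every rat lay above every control for Cyp2c24 and Cyp3a62. Cyp2c24 passed the filter through treated rats, so its separation is a description only. Every rat lay below every control for 6 genes, Cyp2a3, Cyp2c11, Cyp2d1, Cyp3a18, Cyp4f4 and Cyp4f39. Of all genes tested, 11.3% separated in this way. At 3-methylfuran 1.0, Cyp2c12 and Cyp3a62 lay wholly above, and 7 genes wholly below, Cyp2d1, Cyp2d2, Cyp2d5, Cyp2t1, Cyp3a18, Cyp4a2 and Cyp4f4, beside 11.5% of all genes. At the lower doses 0 of the tested P450 genes separated, beside 0.0314%, 0.228% and 0.872% of all genes at furan 0.03, 0.12 and 0.5. At 3-methylfuran 0.02 and 0.075 the shares of all genes were 0.0754% and 0.285%. Cyp1b1, which failed the filter, is left out of these counts and described below.

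Markers of liver cell types moved at the same doses. Of 10 hepatocyte markers (among them Alb, Apoa1 and Ttr), 9 fell and 1 rose at furan 2.0, with a median log2 fold change of -0.47, and 7 fell and 1 rose at 3-methylfuran 1.0 (median -0.21). Their summed level ran from 195950 to 222880 CPM in the furan controls and from 119060 to 182370 CPM at furan 2.0. It ran from 221080 to 244050 CPM in the 3-methylfuran controls and from 183750 to 238130 CPM at 3-methylfuran 1.0. The hepatocyte markers were thus high in every rat. Under TMM their sums lay below all controls at furan 2.0 and overlapped the controls at 3-methylfuran 1.0. Marker levels were not recomputed with libraries scaled by total count alone, which moved the median of all genes to 0.42 and 0.25 at these doses.

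Of 7 tested cholangiocyte markers, 6 rose and 0 fell at furan 2.0, and of 4 tested, 2 rose and 1 fell at 3-methylfuran 1.0. The summed level of all 8 ran from 7.21 to 14.2 CPM in the furan controls and from 18.8 to 72.2 CPM at furan 2.0. It ran from 8.94 to 13.5 CPM in the 3-methylfuran controls and from 22.6 to 33.2 CPM at 3-methylfuran 1.0. Of 7 stellate cell and fibroblast markers, 4 rose and 1 fell at furan 2.0, their sum running from 186 to 330 CPM in controls and from 189 to 892 CPM at that dose. At 3-methylfuran 1.0, 0 of 6 were called and the sums were 143 to 162 CPM in controls and 124 to 183 CPM in treated rats. Of 8 macrophage markers, 0 were called at either highest dose. No marker was at 0 in every rat. The part of these shifts in the P450 values was not tested, and in whole liver fewer cells of a type and less RNA per cell cannot be told apart.

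Among the AHR-responsive genes, Cyp1a2 fell with both compounds. Cyp1a2 (ENSRNOG00000016173), the constitutive hepatic form that oxidises caffeine and aromatic amines, ran from 418 to 750.4 CPM in the furan controls (median 546) and from 194 to 464 CPM at furan 2.0 (median 266). It fell by 0.98 ± 0.15 on the log2 scale (SE, adjusted p = 1.8e-06), and the groups overlapped. In the 3-methylfuran experiment Cyp1a2 ran from 203 to 457 CPM in controls (median 367) and from 69.6 to 233 CPM at 1.0 (median 124). The log2 fold change was -1.29 ± 0.19 (adjusted p = 2.8e-06), and the highest treated rat lay above the lowest control.

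Cyp1a1, the classical inducible form and the direct neighbour of Cyp1a2, stayed near the detection limit. It ran from 0 to 0.468 CPM in the furan controls (median 0.255) and from 0.147 to 1.29 CPM at furan 2.0 (median 0.829). It rose by 1.65 ± 0.42 on the log2 scale (adjusted p = 0.0013). Since no furan control held more than 8 counts, Cyp1a1 passed the filter through treated rats, and its rise is given as a description only. In the 3-methylfuran rats it failed the filter and ran from 0.144 to 0.928 CPM in controls and from 0.0991 to 0.882 CPM at 1.0. Cyp1b1, the extrahepatic form of the family, failed the filter, and its values describe a few counts per library. Its medians were 0.0587 CPM in the furan controls, then 0.101, 0.264, 0.39 and 0.881 CPM in order of dose. At furan 0.5 and furan 2.0 the lowest rats, at 0.281 and 0.342 CPM, lay above the highest control at 0.128 CPM. In the fit without a filter, Cyp1b1 rose by 2.67 at furan 0.5 (adjusted p = 0.0081) and by 4.06 at furan 2.0 (adjusted p = 1.3e-08). At 3-methylfuran 1.0 it ran from 0.0765 to 0.256 CPM, beside 0 to 0.133 CPM in controls, and rose by 1.73 in the fit without a filter (adjusted p = 0.045; 0.057 with DESeq2).

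The 8 tested genes listed as CAR- and PXR-responsive split at both highest doses: 4 fell and 1 rose at furan 2.0, and 5 fell and 1 rose at 3-methylfuran 1.0. Cyp3a18 (ENSRNOG00000000969), a male-biased steroid hydroxylase, ran from 706 to 1068 CPM in the furan controls (median 927) and from 289.7 to 628 CPM at furan 2.0 (median 369). It fell by 1.15 ± 0.15 on the log2 scale (adjusted p = 1.3e-07), with every treated rat below every control. Among the 3-methylfuran rats Cyp3a18 ran from 508 to 979.8 CPM in controls (median 757) and from 238 to 419.6 CPM at 1.0 (median 280.0). It fell by 1.31 ± 0.13 (adjusted p = 9.6e-10), again without overlap.

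Cyp3a62, a CYP3A form described in rat liver and intestine, went the other way. It ran from 5.47 to 14.1 CPM in the furan controls (median 9.61) and from 23.5 to 48.7 CPM at furan 2.0 (median 35.1), a rise of 1.86 ± 0.20 (adjusted p = 5.5e-09). In the 3-methylfuran experiment it ran from 4.22 to 10.6 CPM in controls (median 7.06) and from 16.9 to 28.1 CPM at 1.0 (median 21.5), a rise of 1.67 ± 0.18 (adjusted p = 4.9e-09). The lowest treated rat of either experiment lay above the highest control of its own.

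Cyp3a9, a female-biased form, spread widely. It ran from 46.1 to 119.9 CPM in the furan controls (median 89.3) and from 30.8 to 116 CPM at furan 2.0 (median 47.8), a log2 fold change of -0.60 ± 0.30 that was not called (adjusted p = 0.096). Without rat 5 of furan 2.0, which held the value of 116 CPM, the log2 fold change was -0.90 and was called (adjusted p = 0.010). At 3-methylfuran 1.0 Cyp3a9 ran from 8.08 to 42.3 CPM (median 22.1), beside 22.7 to 74.4 CPM in controls (median 43.7), and fell by 0.97 ± 0.28 (adjusted p = 0.0063).

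The Cyp2b genes, the standard readout of CAR activation, were not called higher at any dose under TMM. Cyp2b2 (ENSRNOG00000020775) ran from 23.8 to 178 CPM in the furan controls (median 92.8) and from 34.3 to 91 CPM at furan 2.0 (median 52), with a log2 fold change of -0.57 ± 0.43 (adjusted p = 0.28). For the 3-methylfuran experiment Cyp2b2 ran from 25.9 to 128 CPM in controls (median 61.2) and from 16.9 to 46.5 CPM at 1.0 (median 28.8), a fall of 1.08 ± 0.30 (adjusted p = 0.0048). Cyp2b1 had log2 fold changes of 0.21 ± 0.40 (adjusted p = 0.69) and -0.30 ± 0.32 (adjusted p = 0.47) at furan 2.0 and 3-methylfuran 1.0. Cyp2b3, a constitutive form, ran from 534 to 699 CPM in the furan controls (median 622) and from 404 to 595 CPM at furan 2.0 (median 426), a fall of 0.42 ± 0.08 (adjusted p = 3.1e-05). In the 3-methylfuran experiment it stood at 501 to 690.0 CPM in controls and 502 to 642 CPM at 1.0, a log2 fold change of 0.001 (adjusted p = 0.99). With libraries scaled by total count alone, Cyp2b3 was called higher there (0.25, adjusted p = 0.0016).

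Cyp2c6v1 and Cyp2c7, neighbouring genes with 0 protein-coding genes between them, both fell. Cyp2c6v1 ran from 969.9 to 2158 CPM in the furan controls (median 1695) and from 487 to 1367 CPM at furan 2.0 (median 712), a fall of 1.09 ± 0.18 (adjusted p = 8.9e-06). At 3-methylfuran 1.0 it ran from 451 to 1106 CPM (median 760.2), beside 985 to 1521 CPM in controls (median 1345), a fall of 0.80 ± 0.14 (adjusted p = 1.7e-05). Cyp2c7, a retinoid hydroxylase with higher levels in females, ran from 1070.4 to 2316 CPM in the furan controls (median 1700.5) and from 234 to 1169.7 CPM at furan 2.0 (median 577). Its fall of 1.36 ± 0.25 (adjusted p = 3.0e-05) was the steepest of the P450 genes tested at that dose. At 3-methylfuran 1.0 it ran from 552 to 1577 CPM (median 780.1), beside 1061 to 1969 CPM (median 1654), and fell by 0.83 ± 0.16 (adjusted p = 0.00014).

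All 3 tested male-biased genes fell at both highest doses. Cyp2c11 (ENSRNOG00000052810), the testosterone hydroxylase of adult male rat liver, ran from 1756 to 2509 CPM in the furan controls (median 2116) and from 398 to 1285 CPM at furan 2.0 (median 803). It fell by 1.28 ± 0.17 (adjusted p = 2.5e-07) without overlap. For the 3-methylfuran experiment Cyp2c11 ran from 1099.9 to 2402 CPM in controls (median 2121) and from 689.6 to 1251 CPM at 1.0 (median 1042), a fall of 0.98 ± 0.14 (adjusted p = 9.8e-07). The overlap there came from 1 control, rat 5 at 1099.9 CPM, which lay far below the other controls. Cyp2c13, a male-specific paralog, fell by 0.53 ± 0.12 at furan 2.0 (adjusted p = 0.00062) and by 0.42 ± 0.08 at 3-methylfuran 1.0 (adjusted p = 0.00011).

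Of 3 tested female-biased genes, Cyp2c12, Cyp2c7 and Cyp3a9, 1 fell and 0 rose at furan 2.0, and 2 fell and 1 rose at 3-methylfuran 1.0. Cyp2c12, the female-specific steroid sulphate hydroxylase, behaved differently in the 2 sets of controls. In the furan controls 3 rats stood at 11.3, 12.9 and 16.7 CPM and 5 rats between 42.6 and 89.1 CPM, and at furan 2.0 it ran from 35.1 to 85.3 CPM (median 76.3). The log2 fold change of 0.59 ± 0.45 was not called (adjusted p = 0.29; 1.00 and 0.048 with libraries scaled by total count alone). In the 3-methylfuran controls all 8 rats stood between 9.42 and 18.5 CPM (median 13.8), and at 3-methylfuran 1.0 between 58.3 and 135 CPM (median 98.1), a rise of 2.78 ± 0.17 (adjusted p = 3.4e-13). At furan 0.03 it spread from 10.3 to 154 CPM. The spread among untreated rats therefore differed between the experiments for this gene.

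Cyp2c24, the neighbour of Cyp2c11, started near 0 and rose at both highest doses. It ran from 0 to 2.47 CPM in the furan controls (median 0.414) and from 3.47 to 20.1 CPM at furan 2.0 (median 12.8), a rise of 4.16 ± 0.72 (adjusted p = 1.5e-05). In the 3-methylfuran experiment it ran from 0 to 2.12 CPM in controls (median 0.289) and from 1.19 to 5.97 CPM at 1.0 (median 3.73), a rise of 2.91 ± 0.41 (adjusted p = 9.7e-07). Groups overlapped only for 3-methylfuran, through control rat 1 at 2.12 CPM. With control medians of 0.414 and 0.289 CPM, Cyp2c24 passed the filter through treated rats. Its rises and their adjusted p-values are therefore given as a description only. At the lower furan doses single rats were already high: the highest values were 8.18, 9.4 and 4.94 CPM at furan 0.03, 0.12 and 0.5. These groups were not called with edgeR (log2 fold changes 1.67 ± 0.77, 2.53 ± 0.74 and 1.94 ± 0.78, adjusted p = 0.50, 0.067 and 0.18). In the authors' deposited table (DESeq2), Cyp2c24 was called higher at furan 0.12 (adjusted p = 0.018), and not at furan 0.03 or 0.5 (adjusted p = 0.44 and 0.12).

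**Figure D2:**
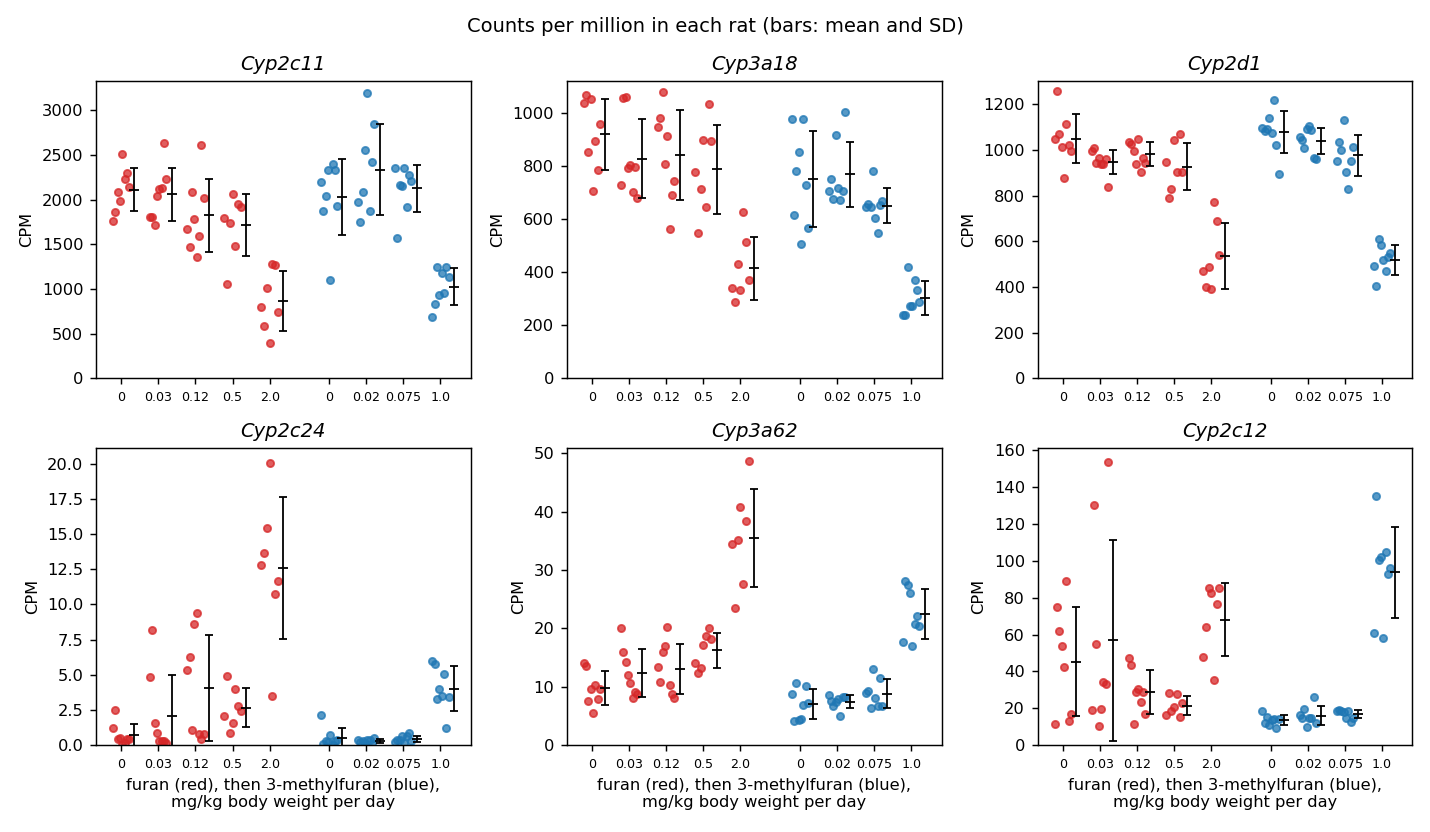
CPM of 6 P450 genes in each rat (points), with the mean and SD of each group beside them; red is furan at 0, 0.03, 0.12, 0.5 and 2.0 and blue is 3-methylfuran at 0, 0.02, 0.075 and 1.0, as daily doses in mg per kg. Cyp2c11, Cyp3a18 and Cyp2d1 were lower at the highest doses, Cyp2c24 and Cyp3a62 were higher, and Cyp2c12 was spread from 11.3 to 89.1 CPM in the furan controls but from 9.42 to 18.5 CPM in the 3-methylfuran controls.

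The CYP2D genes, a tandem cluster whose products oxidise many amine drugs, fell in 4 of 4 tested members at both highest doses. Cyp2d1 (ENSRNOG00000029179) ran from 877 to 1259 CPM in the furan controls (median 1035) and from 393 to 775 CPM at furan 2.0 (median 489.7), a fall of 0.97 ± 0.10 (adjusted p = 1.1e-09). For the 3-methylfuran experiment Cyp2d1 ran from 896 to 1221 CPM in controls (median 1089.8) and from 403 to 611 CPM at 1.0 (median 525), a fall of 1.05 ± 0.07 (adjusted p = 2.0e-13). Neither treated group overlapped its controls for this gene. Cyp2d5, its direct neighbour, ran from 189 to 289 CPM in the furan controls (median 228) and from 100.5 to 194 CPM at furan 2.0 (median 125), a fall of 0.75 ± 0.10 (adjusted p = 3.6e-07).

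Cyp2d4, the form also known from brain, ran from 39.3 to 63.8 CPM in the 3-methylfuran controls (median 54.3) and from 22.4 to 40.8 CPM at 1.0 (median 28.2), a fall of 0.82 ± 0.12 (adjusted p = 1.1e-06). At furan 2.0 Cyp2d4 fell by 0.54 ± 0.11 (adjusted p = 0.00012). Cyp2d2 fell by 0.63 ± 0.12 at furan 2.0 (adjusted p = 6.0e-05) and by 0.70 ± 0.08 at 3-methylfuran 1.0 (adjusted p = 5.8e-09). The 4 falls thus spanned 0.54 to 0.97 for furan 2.0 and 0.62 to 1.05 for 3-methylfuran 1.0, where Cyp2d5 had the smallest. Scaled by total count alone, the log2 fold changes of all 4 at furan 2.0 remained below 0, and that of Cyp2d4 (-0.17, adjusted p = 0.090) was no longer called.

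All 4 Cyp4a genes, which encode fatty acid omega-hydroxylases and are standard PPAR alpha targets, fell at both highest doses. Cyp4a2 (ENSRNOG00000030154) ran from 1839.7 to 2888 CPM in the furan controls (median 2349) and from 880.4 to 2159 CPM at furan 2.0 (median 1086), a fall of 0.94 ± 0.15 (adjusted p = 3.6e-06). The treated rat at 2159 CPM, rat 5, was the only one inside the control range. In the 3-methylfuran experiment Cyp4a2 ran from 1446 to 2483 CPM in controls (median 1873) and from 454 to 1222 CPM at 1.0 (median 813), a fall of 1.27 ± 0.20 (adjusted p = 5.7e-06) without overlap.

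Cyp4a8 ran from 10.9 to 36.3 CPM in the furan controls (median 17.7), from 18 to 36.7 CPM at furan 0.5 (median 31.4) and from 4.99 to 20.6 CPM at furan 2.0 (median 6.64). The log2 fold change was 0.53 ± 0.29 at furan 0.5 (adjusted p = 0.35) and -1.19 ± 0.31 at furan 2.0 (adjusted p = 0.0016). At 3-methylfuran 1.0 Cyp4a8 ran from 4.01 to 12.9 CPM (median 9.69), beside 9.1 to 28.5 CPM (median 15.2), and fell by 0.96 ± 0.24 (adjusted p = 0.0018). The neighbours Cyp4a1 and Cyp4a3 moved less. Cyp4a1 fell by 0.56 ± 0.17 and 0.41 ± 0.14 and Cyp4a3 by 0.55 ± 0.13 and 0.48 ± 0.13 at furan 2.0 and 3-methylfuran 1.0 (adjusted p = 0.0080 and 0.014, then 0.00080 and 0.0031). None of these 4 calls held with libraries scaled by total count alone (adjusted p = 0.23, 0.27, 0.11 and 0.14, in that order).

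Of 11 tested genes of fatty acid and eicosanoid oxidation outside Cyp4a, 6 fell and 0 rose at furan 2.0, and 6 fell and 2 rose at 3-methylfuran 1.0, counting Cyp4f1, which turned higher under scaling by total count alone. Cyp4f4, a hydroxylase of leukotrienes and other eicosanoids, ran from 212 to 277 CPM in the furan controls (median 242) and from 101 to 189 CPM at furan 2.0 (median 125), a fall of 0.88 ± 0.10 (adjusted p = 2.5e-09). For the 3-methylfuran experiment Cyp4f4 ran from 226 to 266 CPM in controls (median 235) and from 107 to 147 CPM at 1.0 (median 132), a fall of 0.93 ± 0.07 (adjusted p = 8.6e-13). It separated from controls with both compounds. Cyp4f39, the rat counterpart of a hydroxylase of very long fatty acids in skin, ran from 39.5 to 52.1 CPM in the furan controls (median 45.3) and from 18.6 to 24 CPM at furan 2.0 (median 19.5). Its fall of 1.15 ± 0.09 had the smallest adjusted p of the P450 genes at that dose (5.3e-12).

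In the 3-methylfuran experiment Cyp4f39 ran from 28.7 to 53.2 CPM in controls (median 38.5) and from 24 to 35.9 CPM at 1.0 (median 27.5), a fall of 0.47 ± 0.13 (adjusted p = 0.0038). Cyp2c23, an arachidonic acid epoxygenase, fell by 0.64 ± 0.12 at furan 2.0 and by 0.36 ± 0.11 at 3-methylfuran 1.0 (adjusted p = 4.1e-05 and 0.0085). Cyp4f6 fell by 0.41 ± 0.12 and 0.32 ± 0.13 (adjusted p = 0.0048 and 0.044), and Cyp4f1 by 0.23 ± 0.06 and 0.15 ± 0.05 (adjusted p = 0.0040 and 0.025) under TMM. These last falls were small beside those of Cyp4f4. The 3-methylfuran calls of Cyp4f6 and Cyp4f1 ended when any 1 of 11 or of 5 rats was left out (adjusted p up to 0.13 and 0.062). For Cyp4f6 these were controls 1, 2, 3, 6 and 7 and treated rats 1, 2, 5, 6, 7 and 8, and for Cyp4f1 control 1 and treated rats 1, 2, 6 and 7.

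Cyp2j4 and Cyp2j10, members of a subfamily that epoxidises polyunsaturated fatty acids, were called higher at 3-methylfuran 1.0. Cyp2j4 ran from 49.6 to 78.9 CPM in controls (median 62.6) and from 62.3 to 90.6 CPM at 1.0 (median 74.1), a rise of 0.25 ± 0.09 (adjusted p = 0.022). Its call ended without control 2, control 8 or treated rat 6 (log2 fold change 0.21 to 0.22, adjusted p up to 0.061). Cyp2j10 ran from 132 to 166 CPM in controls (median 152) and from 153 to 209 CPM at 1.0 (median 166), a rise of 0.20 ± 0.06 (adjusted p = 0.010). At furan 2.0 the log2 fold changes of the pair were 0.14 ± 0.10 (adjusted p = 0.28) and -0.20 ± 0.11 (adjusted p = 0.14). With libraries scaled by total count alone, Cyp2j4 was called higher at furan 2.0 (0.52, adjusted p = 8.6e-06). Without rat 5 of furan 2.0, Cyp2j10 was called lower at that dose (-0.30, adjusted p = 0.021).

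Among the remaining genes of family 2, Cyp2a3, a coumarin- and nicotine-oxidising form, fell most at furan 2.0. It ran from 1243 to 1555 CPM in the furan controls (median 1416) and from 582 to 1088 CPM at furan 2.0 (median 716), a fall of 0.84 ± 0.10 (adjusted p = 1.3e-08) without overlap. Among the 3-methylfuran rats it ran from 1207 to 1760.5 CPM in controls (median 1477) and from 954 to 1241 CPM at 1.0 (median 1099.8), a fall of 0.40 ± 0.07 (adjusted p = 4.2e-05). Cyp2f4, a naphthalene-oxidising form best known from lung, fell by 0.56 ± 0.09 and 0.34 ± 0.07 (adjusted p = 4.4e-06 and 0.00030). Cyp2t1 fell by 0.56 ± 0.11 and 0.70 ± 0.08 (adjusted p = 7.1e-05 and 1.1e-08).

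Cyp2c22 fell by 0.46 ± 0.17 at furan 2.0 (adjusted p = 0.022), a call that ended without control 4 or without treated rat 1, 2 or 7 (-0.41 to -0.40, adjusted p up to 0.066). At 3-methylfuran 1.0 its log2 fold change was -0.11 ± 0.12 (adjusted p = 0.47). Cyp2s1, Cyp4f17 and Cyp4v3 were called at neither highest dose, with log2 fold changes between -0.26 and 0.51. With Cyp2b1 they made 4 of the 38 genes tested in both experiments.

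Below the highest doses few P450 genes were called, and each dose shares its controls with the other doses of its experiment. At furan 0.03 and 3-methylfuran 0.02, 0 genes were called with edgeR, beside 0.0707% (0.0471% higher, 0.0236% lower) and 0.0335% (0.0168% higher, 0.0168% lower) of all genes; 4 and 3 genes had an unadjusted p under 0.05, and 0 were called with DESeq2 or limma voom. At furan 0.12, 1 of 39 was called lower, beside 0.919% lower and 1.02% higher of all genes, 1.94% in all. At furan 0.5, 2 rose and 1 fell of 39, beside 1.5% and 1.66% of all genes, 3.16% in all. At 3-methylfuran 0.075, 1 of 38 was called higher, beside 0.436% higher and 0.93% lower, 1.37% in all. Each of the called genes is described next.

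The call at furan 0.12 was Cyp2u1, a fatty acid hydroxylase found in many tissues. It ran from 15.1 to 25 CPM in the furan controls (median 20.7), from 11.3 to 19 CPM at furan 0.12 (median 14.7) and from 9.998 to 18.1 CPM at furan 2.0 (median 12.1). It fell by 0.50 ± 0.12 at furan 0.12 (adjusted p = 0.024) and by 0.70 ± 0.13 at furan 2.0 (adjusted p = 2.5e-05). The log2 fold changes at furan 0.03 and 0.5 were -0.36 ± 0.12 (adjusted p = 0.30) and -0.37 ± 0.13 (adjusted p = 0.096). The call at furan 0.12 ended without treated rat 1, 3 or 6 or without control 1, 3 or 4 (-0.50 to -0.45, adjusted p up to 0.065).

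At furan 0.5 the called genes were Cyp3a62, Cyp4b1 and Cyp4f39. Cyp3a62 ran from 12.3 to 20.0 CPM (median 17.1), a rise of 0.73 ± 0.21 (adjusted p = 0.045). Cyp4b1, which bioactivates 4-ipomeanol and other furans, ran from 10.002 to 19.5 CPM in the furan controls (median 14.1) and from 15 to 24.8 CPM at furan 0.5 (median 20.3), a rise of 0.46 ± 0.13 (adjusted p = 0.046). Cyp4f39 ran from 29.6 to 40.0 CPM (median 36.4), a fall of 0.36 ± 0.09 (adjusted p = 0.021). All 3 groups overlapped their controls.

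These calls were near the threshold. That of Cyp3a62 ended without any 1 of controls 3 to 8 or treated rats 4 to 7 (0.64 to 0.74, adjusted p up to 0.095). That of Cyp4b1 ended without any 1 of controls 1, 2, 3, 5, 7 and 8 or treated rats 1, 4, 5, 6 and 7 (0.39 to 0.48, adjusted p up to 0.11). That of Cyp4f39 ended without control 8 or treated rat 2 (-0.33 to -0.32, adjusted p up to 0.059), and with libraries scaled by total count alone (-0.30, adjusted p = 0.054). The calls of Cyp3a62 and Cyp4b1 also ended without a filter (adjusted p = 0.085 and 0.073). That of Cyp3a62 ended with the first run alone (adjusted p = 0.11), and that of Cyp4b1 with limma voom (adjusted p = 0.050409) and with only this dose and its controls fitted (adjusted p = 0.069). At furan 2.0 Cyp4b1 stood at 12.4 to 21.2 CPM (median 15.5; 0.18 ± 0.13, adjusted p = 0.26). With libraries scaled by total count alone, Cyp4b1 was called higher at both doses, by 0.52 at furan 0.5 (adjusted p = 0.024) and 0.57 at furan 2.0 (adjusted p = 0.00033).

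Among the 3-methylfuran rats Cyp4b1 fell at 1.0, from 7.17 to 11.2 CPM in controls (median 8.84) to 4.16 to 8.79 CPM (median 7.11). The log2 fold change was -0.33 ± 0.13 (adjusted p = 0.041), a call that ended without any 1 of controls 1, 2, 5 and 6 or treated rats 2, 3, 4, 5 and 8 (adjusted p up to 0.10). The call at 3-methylfuran 0.075 was Cyp2r1, a vitamin D 25-hydroxylase. It ran from 2.78 to 5.26 CPM in controls (median 3.52), from 4.16 to 6.5 CPM at 0.075 (median 5.49) and from 3.73 to 6.96 CPM at 1.0 (median 4.41). It rose by 0.55 ± 0.14 (adjusted p = 0.039) and 0.43 ± 0.14 (adjusted p = 0.013) at these doses, and the groups overlapped. The first call ended without any 1 of treated rats 1 and 5 to 8 or controls 1 to 6 (0.50 to 0.56, adjusted p up to 0.089).

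Dose was also fitted as a straight line over all groups of an experiment. With furan, 26 P450 genes fell and 3 rose with dose (29 of 39, beside 25.3% and 26.7% of all genes, 52% in all), and with 3-methylfuran 26 fell and 5 rose (31 of 38, beside 24.2% and 23.8%, 48% in all). Cyp4f39 fell by 0.53 ± 0.04 log2 units per mg/kg furan (adjusted p = 3.5e-13) and Cyp2d1 by 1.02 ± 0.06 per mg/kg 3-methylfuran (adjusted p = 5.9e-16). Without the highest dose, 1 P450 gene was called in each experiment. The share of all genes called in that fit was not counted, so the drop is not set against all genes.

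The highest doses, furan 2.0 and 3-methylfuran 1.0, were set against each other as the difference of their log2 effects over their own controls. The difference was called for 5 of 39 genes, beside 7.23% of all genes (3.52% above 0 and 3.72% below), and was below 0 in all 5. Cyp2c12 differed by -2.21 ± 0.51 (95% interval -3.22 to -1.19, adjusted p = 0.0037), where its uneven furan controls enter the estimate. Cyp4f39 differed by -0.69 ± 0.16 (-1.01 to -0.37, adjusted p = 0.0038), Cyp2a3 by -0.45 ± 0.12 (-0.70 to -0.21, adjusted p = 0.016) and Cyp2b3 by -0.43 ± 0.10 (-0.63 to -0.24, adjusted p = 0.0031). Cyp2j10 differed by -0.41 ± 0.13 (-0.68 to -0.14, adjusted p = 0.045), a call that ended without a filter (adjusted p = 0.074) and with the first run alone (adjusted p = 0.055).

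Cyp4f39 and Cyp2a3 thus fell further at furan 2.0 than at 3-methylfuran 1.0. Cyp2c12 rose at 3-methylfuran 1.0 and was not called at furan 2.0. For several genes that moved far with both compounds no difference was called. That of Cyp2d1 was 0.08 (95% interval -0.17 to 0.32), that of Cyp3a62 0.18 (-0.37 to 0.73), that of Cyp1a2 0.30 (-0.18 to 0.78) and that of Cyp2c24 1.24 (-0.67 to 3.16). These intervals leave room for differences of those sizes. Cyp2c24 passed the filter through treated rats, so its interval is a description only.

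**Figure D3:**
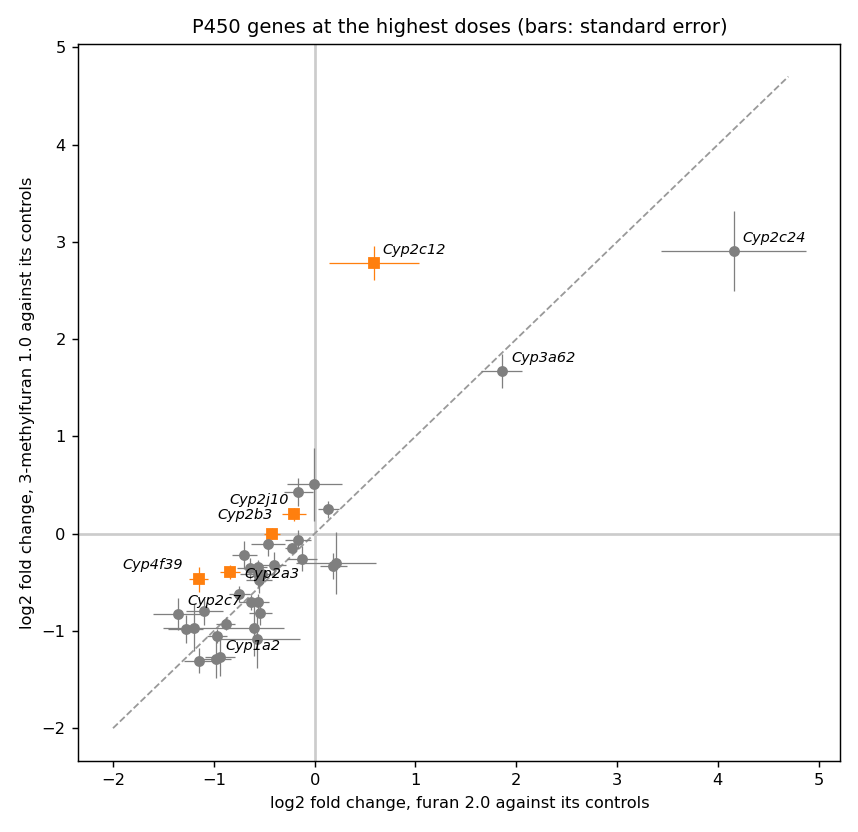
Log2 fold change at furan 2.0 (horizontal) and at 3-methylfuran 1.0 (vertical), each against its own controls, for the 38 P450 genes tested in both; bars are standard errors and the dashed line marks equal effects. Orange squares are the 5 genes with a called difference; most points lie in the lower left, and Cyp2c24 and Cyp3a62 in the upper right.

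Furan 0.5 and 3-methylfuran 1.0 were compared in the same way. The difference was called for 15 of 39 genes, beside 21.4% of all genes (10.8% above 0 and 10.6% below), with 13 above 0 and 2 below. Those below 0 were Cyp2c12 (-3.88 ± 0.52, adjusted p = 2.3e-07) and Cyp3a62 (-0.95 ± 0.28, adjusted p = 0.0096). The 13 others, which fell less at furan 0.5 than at 3-methylfuran 1.0 or rose, ran from 0.46 ± 0.14 for Cyp2d5 (adjusted p = 0.010) to 1.48 ± 0.39 for Cyp4a8 (adjusted p = 0.0036). Between them were the other 3 Cyp2d genes, Cyp1a2, Cyp2c6v1, Cyp2c11, Cyp2t1, Cyp3a18, Cyp4a2, Cyp4b1 and Cyp4f4.

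The rats of furan 2.0 were not alike. Over the 25 genes that fell there, each of rats 1 to 4 lay below the lowest control in 25, rat 7 in 24, rat 6 in 15 and rat 5 in 6. Rat 5 was the highest of its group in 20 of the 25 genes. Its median over these genes was 86.0% of the control mean, beside 43.4% to 74.8% in the other rats. At 3-methylfuran 1.0 the medians ran from 50.8% to 74.2%, with 14 to 24 of 25 genes below the lowest control.

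Markers of other cell types also differed among these rats, with rat 7 on the side of rats 5 and 6 and not, as for the P450 genes, of rats 1 to 4. Summed cholangiocyte markers stood at 18.8 CPM in rat 5, 21.2 CPM in rat 6 and 32.0 CPM in rat 7, and at 58.4 to 72.2 CPM in rats 1 to 4. Summed stellate cell and fibroblast markers stood at 189 to 204 CPM in rats 5 to 7 and at 513 to 892 CPM in rats 1 to 4. Summed hepatocyte markers were 182370 CPM in rat 5 and 119060 to 179530 CPM in the others. Without rat 5, the calls at furan 2.0 numbered 31, with Cyp2j10, Cyp3a9 and Cyp1b1 added. Cyp1b1 failed the filter with all rats and passed it here, so its addition reflects a change in the genes tested. Every one of the 28 calls made with all rats was still made without rat 5. Rat 5 was picked because its P450 values lay nearest the controls. Leaving it out therefore tends to deepen the falls, and the kept and added calls are a description only.

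**Figure D4:**
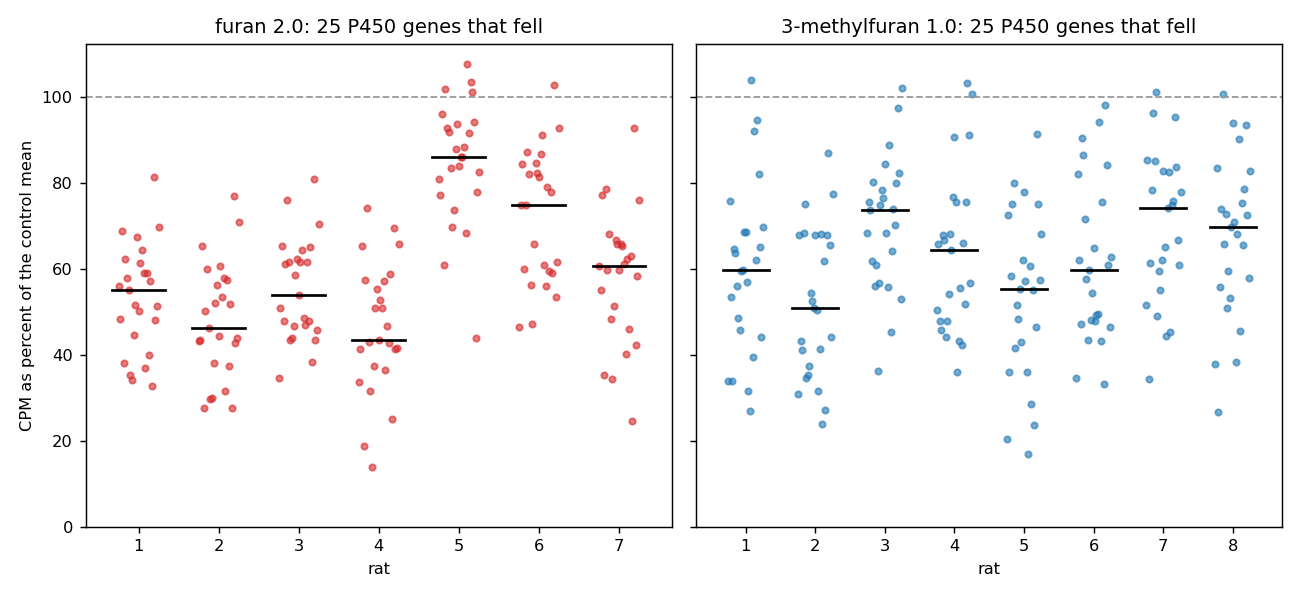
CPM of the 25 P450 genes that fell at furan 2.0 (left) and the 25 that fell at 3-methylfuran 1.0 (right) in each treated rat, as percent of the control mean; points are genes, black lines medians and the dashed line the control mean. Rat 5 of furan 2.0 has a median of 86.0%, above the other rats of both groups; Cyp4f1 is among the genes in both panels and turns higher when libraries are scaled by total count alone.

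Genes that supply P450 enzymes with electrons and haem were tested beside them. Of 6 redox partners, 2 rose and 3 fell at furan 2.0, and 0 rose and 3 fell at 3-methylfuran 1.0, where 24% and 21.2% of all genes rose and 22.5% fell at either dose. Por, the P450 reductase, rose by 0.52 ± 0.18 at furan 2.0 (adjusted p = 0.015), and at 3-methylfuran 1.0 its log2 fold change was 0.16 ± 0.15 (adjusted p = 0.41). Cyb5a, the cytochrome b5 that assists several P450 enzymes, fell by 0.63 ± 0.10 and 0.47 ± 0.07 (adjusted p = 2.8e-06 and 3.8e-07). Of 8 genes of haem synthesis, 0 rose and 2 fell at furan 2.0 (Alad and Fech, each by 0.35 ± 0.09, adjusted p = 0.0014), and 1 rose and 3 fell at 3-methylfuran 1.0. Alas1, the rate-limiting step, had log2 fold changes of -0.36 ± 0.31 (adjusted p = 0.35) and -0.14 ± 0.11 (adjusted p = 0.31). The levels of redox partners and haem genes were not recomputed with libraries scaled by total count alone. That scaling moved the median of all genes to 0.42 and 0.25 at these doses.

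Of 16 tested regulators of P450 genes, 0 rose and 7 fell at furan 2.0 and 1 rose and 8 fell at 3-methylfuran 1.0, where 22.5% of all genes fell at either dose. The levels of these regulators were not recomputed with libraries scaled by total count alone, which moves the median of all genes by 0.42 and 0.25. Cebpa, a hepatocyte transcription factor, fell by 0.97 ± 0.13 and 0.59 ± 0.10 (adjusted p = 1.0e-07 and 1.9e-05). Hnf4a, a receptor-type factor needed for many P450 genes, fell by 0.49 ± 0.10 and 0.41 ± 0.10 (adjusted p = 0.00022 and 0.0010). Both factors therefore fell at the highest dose of either compound. Onecut1, a liver transcription factor, fell by 1.29 ± 0.47 at furan 2.0 (adjusted p = 0.024), and Stat5b, which carries the growth hormone signal, fell by 0.21 ± 0.08 (adjusted p = 0.020). Nfe2l2 (NRF2), the regulator of the oxidative stress response, was the regulator that rose at 3-methylfuran 1.0 (0.44 ± 0.10, adjusted p = 0.00080).

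At lower doses 3 regulators rose and 1 fell at furan 0.12, beside 1.94% of all genes called. Ahr rose by 0.92 ± 0.19 (adjusted p = 0.0079), Ppara by 0.88 ± 0.21 (adjusted p = 0.021) and Nr1i2 by 0.60 ± 0.11 (adjusted p = 0.0015), and Nfe2l2 fell by 0.65 ± 0.12 (adjusted p = 0.0017). Ahr and Nr1i2 also rose at furan 0.5 (0.84 ± 0.20 and 0.54 ± 0.11, adjusted p = 0.014 and 0.0038), where Nfe2l2 and Cebpa fell (-0.50 ± 0.12 and -0.44 ± 0.13, adjusted p = 0.016 and 0.043). At 3-methylfuran 0.075 Cebpa fell by 0.49 ± 0.10 and Nr1i2 by 0.36 ± 0.06 (adjusted p = 0.0075 and 0.00081). Groups of 1 experiment share their controls.

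Rxra, the shared partner of CAR, PXR and PPAR alpha, fell by 0.31 ± 0.09 and 0.70 ± 0.07 (adjusted p = 0.0042 and 2.2e-09). Nr1i3 (CAR) fell by 1.02 ± 0.20 at 3-methylfuran 1.0 (adjusted p = 0.00012), with a log2 fold change of -0.14 ± 0.27 at furan 2.0 (adjusted p = 0.70). Nr1i2 (PXR) fell by 0.52 ± 0.06 at 3-methylfuran 1.0 (adjusted p = 1.8e-08), with 0.13 ± 0.11 at furan 2.0 (adjusted p = 0.34). Ppara fell by 0.36 ± 0.14 at 3-methylfuran 1.0 (adjusted p = 0.035), with 0.40 ± 0.22 at furan 2.0 (adjusted p = 0.13). Ahr was called at neither dose (0.34 ± 0.20 and -0.21 ± 0.16, adjusted p = 0.15 and 0.30), and its partner Arnt fell by 0.26 ± 0.08 and 0.25 ± 0.07 (adjusted p = 0.012 and 0.0021). The difference between furan 2.0 and 3-methylfuran 1.0 was called for Nr1i2 (0.65 ± 0.13, adjusted p = 0.00090) and Rxra (0.38 ± 0.12, adjusted p = 0.033) above 0 and for Onecut1 below 0 (-2.70 ± 0.79, adjusted p = 0.025), and not for Nr1i3 (0.87 ± 0.34, adjusted p = 0.099) or Ppara (0.75 ± 0.27, adjusted p = 0.074).

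In the authors' deposited table for furan, 5 P450 genes were higher and 25 lower at furan 2.0 at an adjusted p under 0.05, of 50 listed, beside 32.7% of all genes listed. In the authors' deposited table for 3-methylfuran, 7 were higher and 25 lower at 1.0 of 49 listed, beside 29.7%. At the lower furan doses the authors' deposited table called 0 at furan 0.03 and 1 higher and 1 lower at furan 0.12. It called 3 higher and 1 lower at furan 0.5. Of all genes listed, 0.237%, 1.90% and 2.89% were called at these doses. The authors' deposited table for 3-methylfuran called 0 at 0.02 and 1 higher at 0.075, beside 0.0968% and 1.44% of all genes listed.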

How the data were processed

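Liver poly(A) RNA of 70 rats was sequenced in 76 (furan) and 96 (3-methylfuran) runs. The deposited count tables hold whole-number counts per gene and run, made by the authors with STAR 2.7.1a and featureCounts 2.0.0 on Rnor 6.0, per the submitters' processing notes. The sources used here do not state annotation release, strand or multimapping settings. The authors' deposited comparison tables (DESeq2 1.26.0) hold adjusted p-values with a signed fold change for furan, a unit other than a plain ratio, and a plain ratio for 3-methylfuran. Control rats were assigned to an experiment by their title number and count table.

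Runs of a rat were summed (furan 2 runs, 3-methylfuran 3). Counts were fitted in R 4.3.3 with edgeR 4.0.16: filterByExpr (minimum count 10), TMM, robust quasi-likelihood F test, 1 fit per experiment, Benjamini-Hochberg over all genes, threshold 0.05. Standard errors were taken from the log2 fold change and its F statistic. Differences between compounds used 1 fit of all 70 rats. DESeq2 1.42.0 and limma voom 3.58.1 were alternatives. The procedure was tested on simulated data.

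The P450 genes and lists were chosen with earlier results of these data known. Named were up to 12 called genes per direction at each highest dose, the tested genes of role lists, genes called at lower doses or between compounds, and the 5 highest in controls; Cyp1b1 and Cyp1a1 values below 1 CPM are given with their role list. Nr3c1, Cyb5b, Cyp2a1, Cyp2a2, Cyp2c6, Cyp2d3, Cyp2j3, Cyp3a1, Cyp3a2 and Cyp3a73 had no matching symbol. The male-biased list thus lacks Cyp2a2 and Cyp3a2, and the female-biased list lacks Cyp2a1. Cyp2a3 was the only Cyp2a gene matched, and whether its counts hold reads of other Cyp2a copies was not tested. Array data were not used here. The values of some listed regulators are not reported here.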

Additional observations from a re-analysis of the deposited data

Results flagged for a closer look

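Over 347 sets of rats (1 gene in 1 group), 14 held a value that stood apart from its group by Dixon's criterion; chance flags about 5% of sets. Rat 3 of furan 0.12 was the highest of its group for 4 genes: Cyp1a2 (611 CPM, next 503), Cyp3a9 (158 CPM, next 78.2), Cyp4a8 (56.0 CPM, next 31.7) and Cyp4b1 (26.5 CPM, next 18.6). Rat 5 of furan 2.0 was the highest for Cyp2u1 (18.1 CPM, next 12.5), Cyp3a9 (116 CPM, next 61.8) and Cyp4a2 (2159 CPM, next 1400.0). Among the 3-methylfuran controls, rat 5 was low for Cyp2c11 (1099.9 CPM, next 1870.0), and rats 7, 1 and 4 were high for Cyp2b2 (128 CPM), Cyp2c24 (2.12 CPM) and Cyp4v3 (21.1 CPM). Single values also stood apart for Cyp1a2 in rat 8 of 3-methylfuran 0.02 (427 CPM), Cyp2c6v1 in rat 4 of 3-methylfuran 0.075 (1719 CPM) and Cyp2d1 in rat 8 of furan 0.03 (839 CPM).

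The effects of furan 2.0 and 3-methylfuran 1.0 differed by a test of the difference for Cyp2b3 (-0.43 on the log2 scale), Cyp2a3 (-0.45), Cyp2c12 (-2.21), Cyp2j10 (-0.41) and Cyp4f39 (-0.69). Compound, dose, kit and experiment cannot be told apart in these differences.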

How the results depend on the processing

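The counts of called P450 genes at the highest doses were 24 to 30 (furan 2.0) and 22 to 32 (3-methylfuran 1.0) over the alternative scalings, filters, tools, runs and fits. With single rats left out in turn, the counts were 27 to 31 at furan 2.0, 28 to 31 at 3-methylfuran 1.0, 0 to 4 at furan 0.5, 0 to 2 at furan 0.12, 0 to 1 at 3-methylfuran 0.075, and 0 to 0 at furan 0.03 and 3-methylfuran 0.02. At furan 0.12, 0 genes were called from the first run alone and 2 with DESeq2, in place of 1. The straight-line dose fit without the highest dose called 1 P450 gene for furan and 1 for 3-methylfuran, in place of 29 and 31. The share of all genes called in that fit was not counted, and the cause was not tested. With libraries scaled by total count alone, Cyp4f1 reversed at furan 2.0 (0.15, adjusted p = 0.0059) and 3-methylfuran 1.0 (0.10, adjusted p = 0.12). That scaling moved the median of all genes to 0.42 and 0.25 at these doses. Which scaling lies nearer the true levels was not tested. No paired analysis was possible because rat numbers name different animals in each group and are not shared between groups. The 11 genes that failed the filter in both experiments had low counts, and the part of depth in this was not tested. For Cyp1b1, the values given describe a few counts per library.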
